A study of Arabidopsis thaliana with 3 samples.

Results

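The 8 genes described here encode auxin receptors and activating auxin response factors of Arabidopsis thaliana, and were named by locus. The receptor genes are TIR1 (AT3G62980), AFB1 (AT4G03190), AFB2 (AT3G26810) and AFB3 (AT1G12820). The response factor genes are ARF6 (AT1G30330), ARF7 (AT5G20730), ARF8 (AT5G37020) and ARF19 (AT1G19220). They are 8 of 27444 protein-coding genes on the 5 nuclear chromosomes. Chromatin was immunoprecipitated with an antibody against green fluorescent protein (GFP) from 7-day-old seedlings of the wild type Col-0 and of lines overexpressing TZP (OX TZP) or ZFHD10 (OX ZFHD10), 1 library each, and sequenced. All 3 were kept under low blue light on agar without sucrose. TZP and ZFHD10 are zinc-finger proteins, and the labels give neither the promoter behind each transgene nor the number of independent lines. Each overexpression line has a deposited list of enriched stretches of chromatin, named islands, while a list of Col-0 was not used here.

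Auxin acts by joining an F-box protein of the TIR1/AFB family to an Aux/IAA repressor, which is then marked for destruction by the ubiquitin ligase that the F-box protein belongs to. Loss of the Aux/IAA protein frees auxin response factors, called ARFs, which sit on the promoters of auxin-responsive genes. ARF6, ARF7, ARF8 and ARF19 activate transcription, and in seedlings the pathway drives hypocotyl elongation, phototropic bending and lateral root formation.

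An island was assigned to a gene when it overlapped the gene or the 1000 bp on either side by at least 1 bp. Its value is the number of reads in it divided by its length in kb, with a 95% exact Poisson interval that covers counting error only. The OX TZP list held 11675 nuclear islands with a median of 163 reads per kb, and the OX ZFHD10 list held 16122 with a median of 262. Whole-library depth is unknown, so values were ranked within a list and not compared between lists. With 1 library per line no difference has a replicate check, and no test was made. Positions are those of the deposited lists, in the TAIR10 build per the submitters' processing notes. The gene table gives no strand, so the gene end with the lower position is called the left end and the other the right end. Which of them is the transcription start was not determined.

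All 8 genes had an OX ZFHD10 island and 7 had an OX TZP island, ARF7 being the exception. Among all protein-coding genes, 47.2% met the same rule in OX TZP and 65.9% in OX ZFHD10. The members are longer than most genes, at 2516 to 5735 bp (median 4284) against a median of 2078 bp, and a longer gene offers a wider target. Among the 9062 protein-coding genes in that range of lengths the shares were 55.4% and 75.7%. Islands of each line were found at 7 of the 8 members, against 36.7% of all protein-coding genes and 45.6% of those of similar length. At 6 of the 8, all but AFB1 and ARF7, an OX TZP island overlapped an OX ZFHD10 island, against 26.6% and 32.1%.

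Each line had 11 islands at these genes. In OX TZP they held 73 to 249 reads each and were 350 to 1600 bp long. In OX ZFHD10 they held 122 to 1323 reads and were 550 to 3950 bp long. No island of either line lay wholly within a member gene. Of the OX TZP islands, 6 crossed a gene end and 5 lay wholly outside the gene. Of the OX ZFHD10 islands, 10 crossed a gene end and 1 lay outside. Among all pairs of an island and a gene in the same range of lengths, the island crossed a gene end in 38.2% of OX TZP pairs and 70.8% of OX ZFHD10 pairs.

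**Figure D1:**
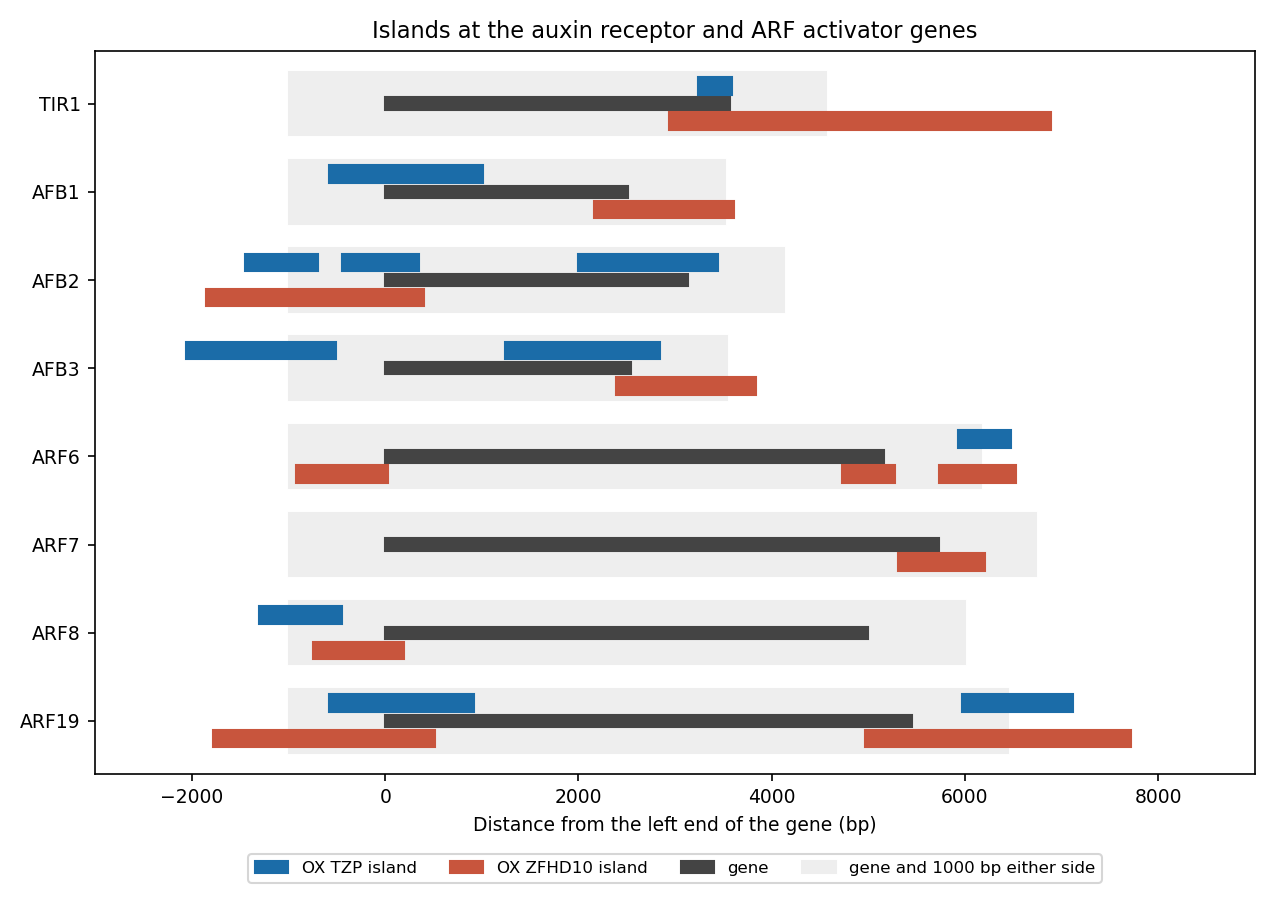
Islands of OX TZP (blue, above each gene) and OX ZFHD10 (red, below) at the 8 genes (dark bars), plotted as distance in bp from the left end of the gene, with the stretch searched in grey. All islands touch or lie beyond a gene end, and ARF7 is the only gene without an OX TZP island.

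TIR1, the founding member of the auxin receptor family, had 1 island of each line at its right end. The OX TZP island spanning 23276301 to 23276650 on chromosome 3 held 73 reads, or 209 reads per kb (163 to 262), rank 530 of 11675. The OX ZFHD10 island spanning 23276001 to 23279950 held 1323 reads, or 335 reads per kb (317 to 353), rank 2723 of 16122. The short OX TZP island lay wholly within the OX ZFHD10 island, which was the longest and had the most reads among the member islands of its line. The OX TZP island lay inside the gene to 94.3% and spanned 9.25% of its length. Its OX ZFHD10 counterpart lay inside the gene to 15.9% and ran 3320 bp past its right end, over no other gene of the table.

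AFB1, which is best known for rapid auxin responses of the root, was the only member whose islands of the 2 lists stood apart at opposite ends. The OX TZP island spanning 1404301 to 1405900 on chromosome 4 held 213 reads, or 133 reads per kb (116 to 152), rank 11572 of 11675. It covered 40.3% of the gene from its left end and reached into the neighbouring gene AT4G03180 and the long noncoding RNA gene AT4G04455. The OX ZFHD10 island spanning 1407051 to 1408500 held 362 reads, or 250 reads per kb (225 to 277), rank 9461 of 16122. It reached 1098 bp past the right end, into AT4G03200. A gap of 1150 bp separated the islands, and both had fewer reads per kb than the median of their list.

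AFB2, a receptor whose transcript is a target of miR393, had the densest OX ZFHD10 island of the 8 genes. This island, spanning 9865801 to 9868050 on chromosome 3, held 1018 reads, or 452 reads per kb (425 to 481), rank 401 of 16122 and 1.73 times the list median. It ran from 1851 bp outside the left end into the gene. Of the 3 OX TZP islands, those at 9866201 to 9866950 and 9867201 to 9868000 lay wholly within it. They had 180 reads per kb (151 to 213) and 186 (158 to 219), ranks 2276 and 1678 of 11675. The third OX TZP island, spanning 9869651 to 9871100 over the right end, counted 152 reads per kb (133 to 174) and met no OX ZFHD10 island. The left side of AFB2 was thus marked in both lists and the right side in OX TZP alone.

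AFB3, also a miR393 target and close in sequence to AFB2, had 2 OX TZP islands and 1 OX ZFHD10 island. The OX TZP island spanning 4370001 to 4371600 on chromosome 1 had 143 reads per kb (125 to 163), rank 10874, and covered 51.1% of the gene. That of OX ZFHD10, spanning 4371151 to 4372600, had 291 reads per kb (264 to 320), rank 5302. They shared 450 bp at the right end of the gene, and the OX ZFHD10 island ran on for 1302 bp outside. The other OX TZP island counted 161 reads per kb (141 to 182) and spanned 4366701 to 4368250. It lay 509 bp outside the left end and over AT1G12805, AT1G12810 and the long noncoding RNA gene AT1G04973, so that its assignment to AFB3 rests on the width of the stretch searched.

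ARF6, which with ARF8 promotes hypocotyl elongation and flower maturation, had dense islands of both lines at the same place outside its right end. The OX TZP island spanning 10691751 to 10692300 on chromosome 1 held 112 reads, or 204 reads per kb (168 to 245), rank 680 of 11675. The OX ZFHD10 island spanning 10691551 to 10692350 held 293 reads, or 366 reads per kb (326 to 411), rank 1653 of 16122. The first lay wholly within the second, their midpoints were 75 bp apart, the closest of the 8 overlapping pairs, and both lay outside the gene, by 762 and 562 bp. OX ZFHD10 had another island over the right end, at 10690551 to 10691100, with 222 reads per kb (184 to 265), and 1 at the left end, at 10684901 to 10685850, with 182 (156 to 211). The intervals of these weaker islands lay below that of the dense one.

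ARF7, known from the mutant nph4 for its part in phototropism, had an OX ZFHD10 island alone. It stood spanning 7021751 to 7022650 on chromosome 5 over the right end of the gene with 185 reads, or 206 reads per kb (177 to 237), rank 14326 of 16122. The nearest OX TZP island stood 7694 bp from the gene. A list of called islands does not show enrichment below the authors' threshold, so a weaker OX TZP signal at ARF7 was not detectable here.

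ARF8, the partner of ARF6, had 1 island of each line around its left end. The OX TZP island spanning 14628151 to 14629000 on chromosome 5 had 147 reads per kb (122 to 175), rank 10147, and stood 452 bp outside the gene. The OX ZFHD10 island spanning 14628701 to 14629650 had 258 reads per kb (227 to 292), rank 8496, and crossed the gene end. They shared 300 bp, and each lay below the median of its list. Both also met AT5G37017, annotated as a transcribed pseudogene.

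ARF19, which acts with ARF7 in lateral root formation, had islands of both lines at both ends. At the left end the OX TZP island spanning 6627101 to 6628600 on chromosome 1 had 159 reads per kb (139 to 180) and shared 1100 bp with the OX ZFHD10 island spanning 6625901 to 6628200, which had 283 (262 to 306). Both reached into the neighbour AT1G19210, and the OX ZFHD10 island also into AT1G19200. Outside the right end the OX TZP island spanning 6633651 to 6634800, with 159 reads per kb (137 to 184), lay wholly within the OX ZFHD10 island spanning 6632651 to 6635400, which held 883 reads or 321 reads per kb (300 to 343). This OX ZFHD10 island also met the long noncoding RNA gene AT1G05477. ARF19 was the only member with overlapping islands at both ends.

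Ordered by the densest island, the OX TZP values fell from TIR1 (209 reads per kb) through ARF6 (204), AFB2 (186), AFB3 (161), ARF19 (159) and ARF8 (147) to AFB1 (133). The intervals of all neighbours in this order overlapped. The AFB3 value belongs to the island outside its left end, over AT1G12805 and AT1G12810, while the island on the gene had 143. In OX ZFHD10 the order was AFB2 (452 reads per kb), ARF6 (366), TIR1 (335), ARF19 (321), AFB3 (291), ARF8 (258), AFB1 (250) and ARF7 (206). Here the interval of AFB2 lay above that of ARF6, and all later neighbours overlapped. By reads per kb, AFB2, ARF6 and TIR1 held the first 3 places in both lines, and AFB1 was the lowest of the 7 genes with islands of each line. By the number of reads in the same islands the OX TZP order was nearly turned round, with AFB3 at rank 1226 of 11675, AFB1 at 2062, ARF19 at 3293, AFB2 at 5616, ARF8 at 7953, ARF6 at 9322 and TIR1 at 11525. In OX ZFHD10 it ran from TIR1 (rank 195 of 16122), AFB2 (426) and ARF19 (600) through AFB3, AFB1, ARF6 and ARF8 to ARF7 (8982).

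**Figure D2:**
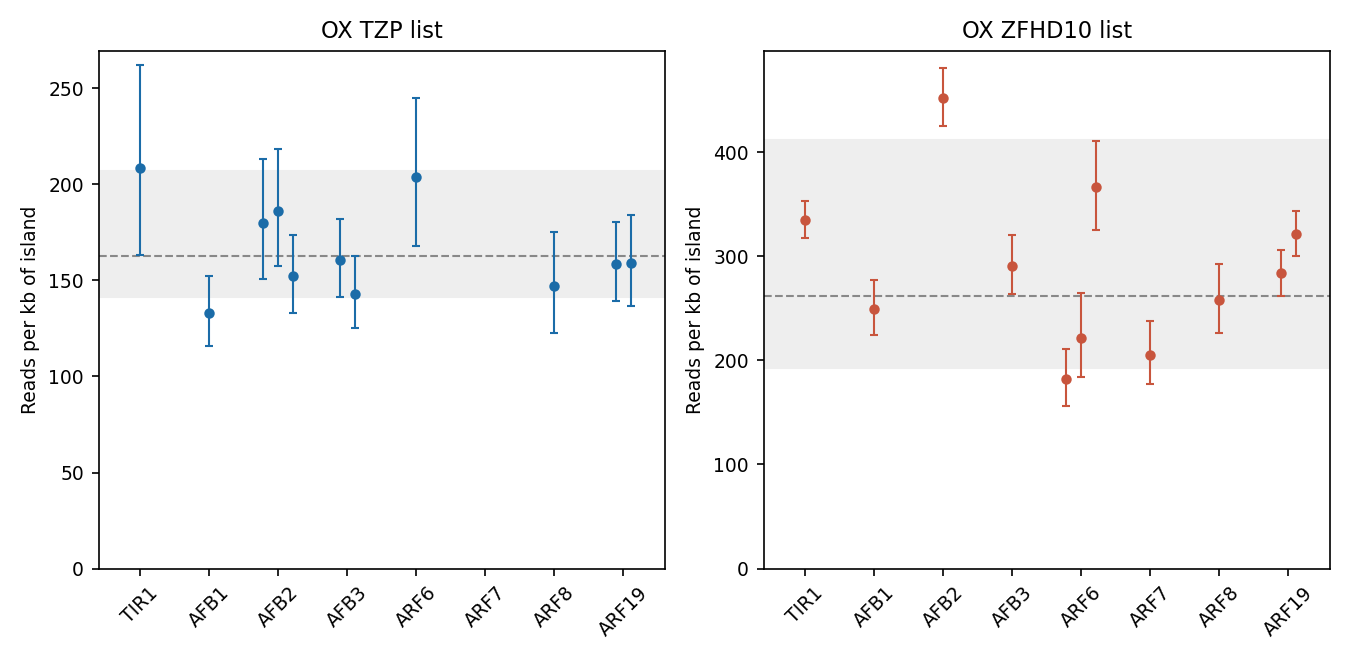
Reads per kb of each island at the 8 genes in the OX TZP list (left) and the OX ZFHD10 list (right), points with 95% Poisson intervals that cover counting error only. The dashed line is the list median (163 and 262 reads per kb) and the grey band runs from the 5th to the 95th percentile of the list; the AFB2 island in OX ZFHD10, at 452, lies above the band.

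The members' densest islands lay on both sides of the list medians. Percentiles were counted from the island with the fewest reads per kb. The median percentile of the densest island was 44.3 over the 7 members with an OX TZP island, against 53.1 over all protein-coding genes with one. The 44.3 is the percentile of the AFB3 island that lies outside the gene. In OX ZFHD10 it was 73.2 over the 8 members, against 60.1. These percentiles do not allow for island length, with which reads per kb varied in both lists, as given below. In OX TZP 3 of 7 and in OX ZFHD10 5 of 8 members had their densest island in the upper part of the list, above its median. The share of all protein-coding genes is not given here. Their medians of 53.1 and 60.1 place most genes with an island in that part too, so these counts do not set the members apart. The densest islands of the 2 lists lay nearer the same gene end at 5 of 7 members, all but AFB1 and AFB3, against 63.1% of all protein-coding genes with islands of each line.

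In the OX TZP list short islands had more reads per kb than long ones. Islands of that list within 50 bp of the length of the TIR1 island had a median of 209 reads per kb (395 islands), against 154 for those as long as the AFB1 island (395 islands). Among islands of its own length the TIR1 island stood at percentile 50.5, against 95.4 in the whole list. For the ARF6 island the percentiles were 92.7 and 94.2, and for the densest AFB2 island 93.1 and 85.6. ARF6 and AFB2 thus stood high at their length and TIR1 did not. In the OX ZFHD10 list the long islands had more reads per kb, with a median of 326 for those as long as the TIR1 island (3950 bp). It was 248 for those as long as the densest ARF6 island (800 bp). Of the 11 member islands of this list, 10 were longer than the list median. In OX ZFHD10 the densest AFB2 and ARF6 islands stood at percentiles 95.5 and 91.5 of islands of their own length, and TIR1 at 63.5 of 26 such islands. ARF19 stood at 63.3, AFB3 at 62.6, ARF8 at 52.8, AFB1 at 37.1 and ARF7 at 19.9.

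**Figure D3:**
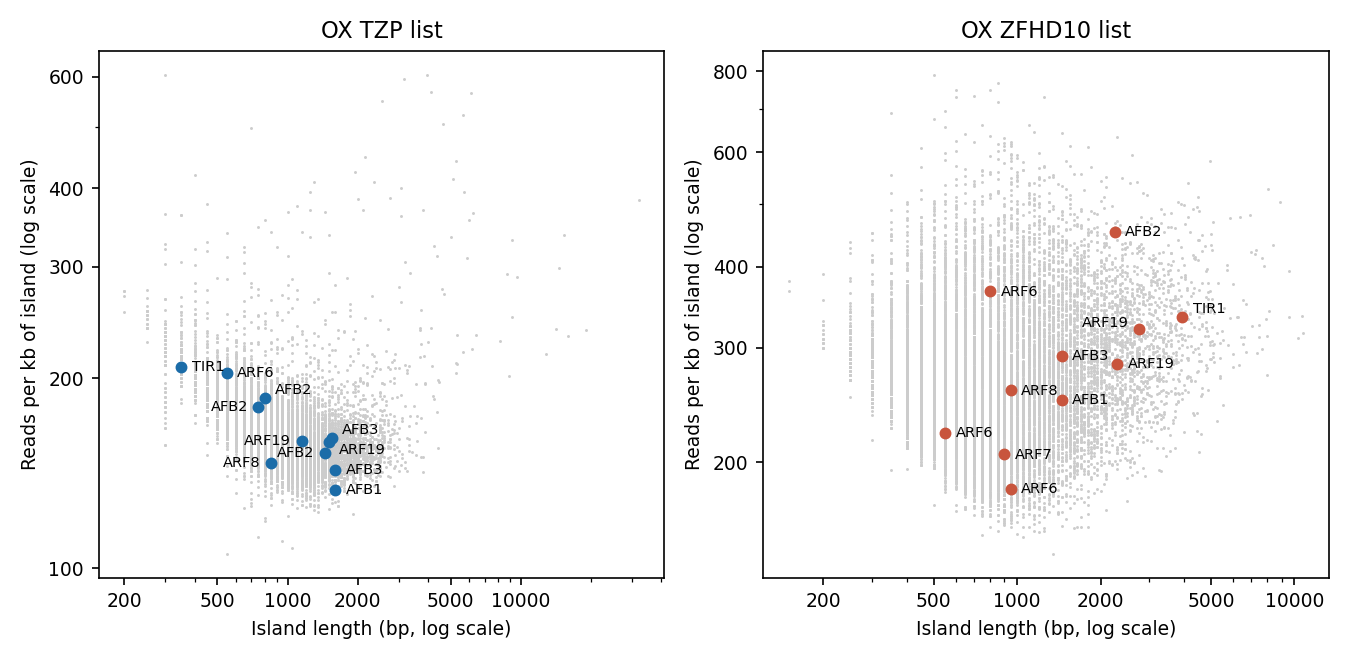
Length (bp, log scale) and reads per kb (log scale) of all nuclear islands (grey) and of the islands at the 8 genes (coloured) in each list. In OX TZP the TIR1 island (350 bp, 209 reads per kb) lies in the middle of the islands of its length, while the ARF6 island (550 bp, 204 reads per kb) lies near the top of them.

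The part of the searched stretch that islands covered varied as well. In OX TZP it was 49.7% at AFB2, 46.1% at AFB3 and 35.4% at AFB1, and 26.6% at ARF19, 7.83% at ARF8, 6.29% at TIR1, 3.32% at ARF6 and 0 at ARF7. AFB1, AFB2 and AFB3 thus had the largest covered shares in OX TZP. They are also the shortest members, at 2516, 3131 and 2539 bp, and the share depends on the length of the stretch. The share of AFB3 includes the island over AT1G12805 and AT1G12810. In OX ZFHD10 the share ran from 11.6% at ARF7 and 13.6% at ARF8 to 40.3% at ARF19, and the other 5 members lay between 25.3% and 29.9%. The median over the 8 members was 17.2% in OX TZP and 27.2% in OX ZFHD10, against 7.54% and 14.3% over protein-coding genes of similar length.

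The rest of the pathway was read from 4 gene lists of 43 genes. Of 11 genes of the remaining F-box receptors and of the ubiquitin ligase around TIR1, all 11 had an OX ZFHD10 island and 7 an OX TZP island. The shares over all protein-coding genes were 65.9% and 47.2%. The 11 genes include COI1, the F-box receptor of jasmonate and not of auxin, which had an OX ZFHD10 island alone. AFB4 and AFB5, the receptors that favour picloram-type auxins, differed from each other. AFB4 had an OX ZFHD10 island spanning 12615751 to 12617650 on chromosome 4 with 483 reads per kb (452 to 515), rank 221 of 16122, but it lay inside AFB4 to 25.7% and also over CIPK8, a kinase gene. The densest OX TZP island of AFB4, spanning 12611951 to 12612650, counted 181 reads per kb (151 to 216). It lay 425 bp outside the gene, over AT4G24370 and AT4G24380. Another OX TZP island, spanning 12613201 to 12615100 wholly inside AFB4, covered 60.1% of the gene with 137 reads per kb (121 to 155), rank 11438 of 11675. That island also met AT4G24380. AFB5 had OX ZFHD10 islands at both ends, of 333 reads per kb (295 to 374) and 227 (200 to 257), and none in OX TZP. In the same list CAND1, a factor that exchanges the F-box subunits of the ligase, had the densest OX TZP island, with 188 reads per kb (147 to 235). That island was short, with 75 reads in 400 bp, and short OX TZP islands had more reads per kb than long ones. SGT1B, a co-chaperone of TIR1, followed AFB4 in OX ZFHD10 with 339 (306 to 375). CUL1 and RBX1, the scaffold and the RING subunit of the ligase, had overlapping islands of both lines, while SKP1 (ASK1) had OX ZFHD10 islands alone. The overlapping islands at CUL1 also lay over AT4G02560 and those at RBX1 over AT5G20580. Those of ASK1 lay over AT1G75945 and AT1G75960.

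Of the other 18 ARF genes, 7 had an OX TZP island and 9 an OX ZFHD10 island, against 47.2% and 65.9% of all protein-coding genes. Of these, ARF9, ARF13 and ARF18 in OX TZP and ARF21 in OX ZFHD10 were counted only through islands wholly outside the gene. ARF2, a repressing ARF that restrains organ growth, had the densest island of this list in both lines. Its OX TZP island spanning 24908851 to 24910500 on chromosome 5 ranked 231 of 11675, with 232 reads per kb (209 to 256). The OX ZFHD10 island spanning 24907851 to 24910950 had 408 (386 to 431), rank 863 of 16122, and contained the first. It lay inside ARF2 to 24.5% and also met AT5G61997, while the OX TZP island lay inside ARF2 to 18.8%. ARF9 followed in OX TZP with 178 reads per kb (143 to 219) in a short island of 500 bp, and ARF16 in OX ZFHD10 with 380 (337 to 427). ARF5, the remaining activating ARF and a regulator of embryo and vascular patterning, had an OX ZFHD10 island alone. Neither list had an island at ARF3, ARF4, ARF12, ARF14, ARF15, ARF20 and ARF22. The last 5 belong to a group of near-identical genes on chromosome 1, where reads that match several copies may be lost. The sources used here do not give how such reads were handled, so these absences are uncertain.

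All 5 genes of the TOPLESS family, TPL, TPR1, TPR2, TPR3 and TPR4, had overlapping islands of both lines, against 26.6% of all protein-coding genes. They are 6217 to 8213 bp long, and among the 497 protein-coding genes in that range the share was 33.8%. They encode the co-repressors through which Aux/IAA proteins silence ARF targets. The densest OX TZP islands were at TPR3, with 172 reads per kb (153 to 193), and TPL, with 164 (148 to 182). In OX ZFHD10 they were at TPR4, with 390 (357 to 425), and TPR1, with 311 (283 to 341). An OX TZP island wholly within the gene, which no member had, was found at TPL, TPR2, TPR3 and TPR4, against 44.7% of genes in this range. It was also found at 4 of the 11 receptor and ligase genes (AFB4, ASK2, AXR1 and CAND1) and at 4 of the other 18 ARF genes (ARF1, ARF2, ARF11 and ARF16). The share was 22.9% among protein-coding genes in the members' range of lengths. ASK2 is shorter and CAND1 longer than that range, so this share is not matched to the receptor and ligase genes in length.

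The members' transcripts are themselves targets of microRNAs, miR393 for TIR1, AFB2 and AFB3, and miR167 for ARF6 and ARF8, while miR160 targets other ARFs. Of the 9 genes of these microRNAs, 4 had an OX TZP island and 3 an OX ZFHD10 island, against 28.5% and 37.7% of all 326 miRNA genes. MIR167D had the densest OX TZP island, spanning 11137801 to 11138300 on chromosome 1 over the right end of the gene, with 206 reads per kb (168 to 250) and rank 607. It too was short, at 500 bp, and short islands of this list had more reads per kb. MIR167A followed with 157 (133 to 184), and in OX ZFHD10 MIR167A had 284 (239 to 335) and MIR167C 232 (192 to 278). MIR393A had an OX ZFHD10 island alone and MIR393B none in either list.

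**Figure D4:**
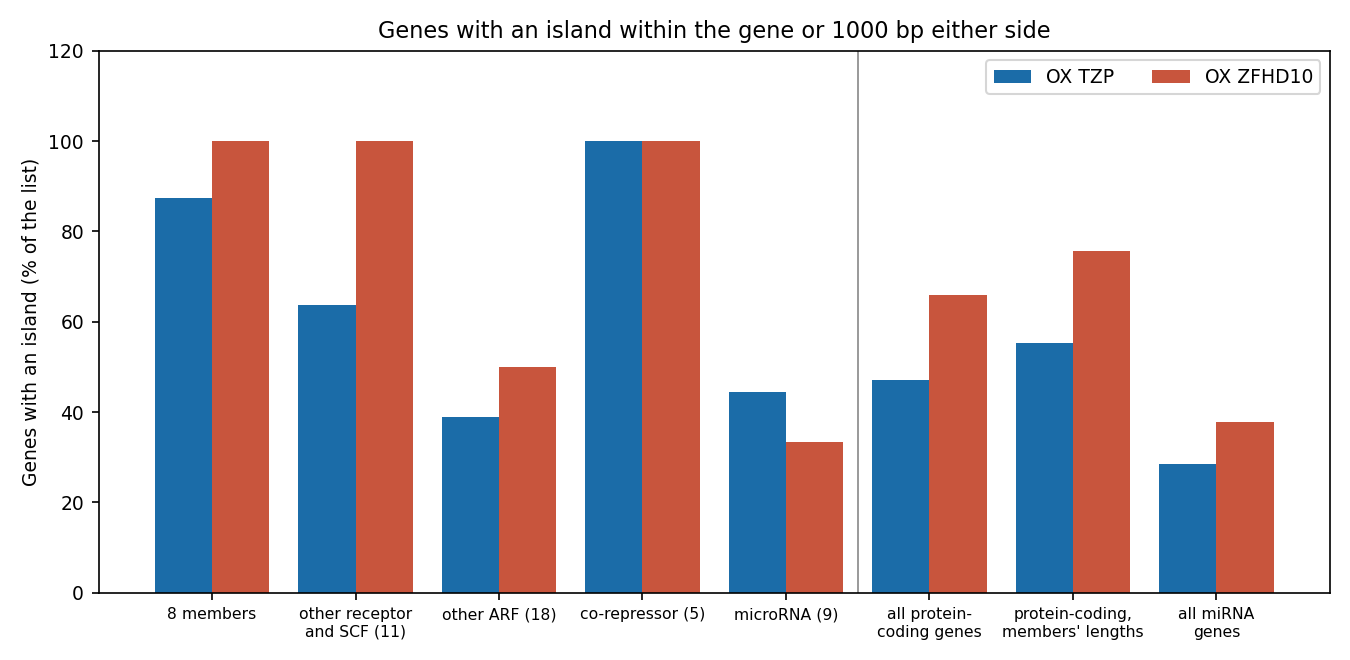
Share of genes (%) with an OX TZP island (blue) or an OX ZFHD10 island (red) in the gene or 1000 bp either side, for the 8 members and 4 pathway lists (left of the line, number of genes in brackets) and for all genes of 3 kinds (right). In OX ZFHD10 all 8 members, all 11 receptor and SCF (ubiquitin ligase) genes and all 5 co-repressor genes have an island, and the other ARF genes lie below all protein-coding genes in both lines. The share of the other ARF genes counts ARF12, ARF14, ARF15, ARF20 and ARF22 as lacking islands, and these absences are uncertain.

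By the pair of percentiles of the densest island, 1 value per library, the pathway gene nearest to both TIR1 and ARF6 was ARF2, at 11.8 and 6.24 percentile points among the 19 pathway genes with islands of each line. It was followed by ARF9 for TIR1 (18.1 points) and by AFB4 for ARF6 (15.8 points). These are percentiles of the whole list, and that of TIR1 in OX TZP falls from 95.4 to 50.5 among islands of its own length. A likeness over 2 libraries is a description only.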

How the data were processed

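The deposited lists give, per island, a chromosome, a start, an end and a whole number taken as a count of reads, not scaled for depth or length, 1 list per library. That reading rests on the values and on the layout of SICER lists, since no label states it. Tools named, without roles, in the submitters' processing notes are SICER 1.1, Bowtie 0.12.7, cutadapt 1.5 and HOMER, with the build TAIR10. Per the names of the lists, the false discovery rate was 0.1, the gap 200 bp and the window 50 bp, so positions move in steps of 50 bp and weak islands are admitted. The sources used here give neither the control library nor the treatment of duplicate reads.

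Samples were grouped by genotype. Positions count from 1, and the 9 organelle islands of OX TZP were left out. The lists held 2112203 reads in OX TZP and 4731495 in OX ZFHD10, which is not library depth. The fewest reads in an island were 47 and 55. Genes came from a RefSeq table of TAIR10.1, in which all 51 loci of the lists were found. As a check that both builds share positions, OX ZFHD10 midpoints were shifted by up to 3000 bp, and on each of the 5 chromosomes they fell in genes least often at a shift of 0. Exons, strand and sequence were not used here. Gene assignment was tested on simulated islands. Intervals are 95% exact Poisson intervals and treat amplified reads as independent. Python 3.11.15, pandas 2.3.3 and SciPy 1.17.1 were used.

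The members and pathway lists were chosen with earlier results of these data known. The named genes were all members, AFB4 and AFB5, up to 4 genes per pathway list with the densest islands, other genes under a member island, and those nearest to TIR1 and ARF6 in percentiles. CUL1, RBX1, SKP1, ASK2, AXR1, ARF1, ARF5, ARF11, ARF13, ARF18, ARF21, TPR2, MIR393A, MIR393B and the genes without islands were named after their values were seen. So were the neighbours under islands of the pathway genes. The shares among genes of similar length, the order among islands of like length and the shares of islands crossing a gene end or wholly inside a gene were likewise added later. Alternatives changed the stretch beside the gene (500 or 2000 bp, or none), the overlap, the islands kept, the assignment and the order within a list.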

Additional observations from a re-analysis of the deposited data

How the results depend on the processing

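Of the counts recomputed under other settings, 73 stayed within 1.5 times their value and 18 did not. Keeping the part of each list above its median of reads per kb left 3 members with an OX TZP island (AFB2, ARF6 and TIR1), 5 with an OX ZFHD10 island, 3 with islands of each line and 3 with overlapping islands. In OX TZP it left 4 of the other receptor and ligase genes, 4 of the other ARF genes, 2 co-repressor genes and 1 microRNA gene, and in OX ZFHD10 1 microRNA gene. Keeping the part with the most reads left 4 members with an OX TZP island, 4 with islands of each line and 3 with overlapping islands, 3 other receptor and ligase genes in OX TZP and 1 microRNA gene in OX ZFHD10. With the gene alone, 4 other ARF genes and 2 microRNA genes had an OX TZP island, and with 2000 bp either side 6 microRNA genes had an OX ZFHD10 island. Fewer islands or a narrower stretch lower such counts by construction. The shares of all protein-coding genes under these settings are not given here, so these counts cannot be set against those of other genes.

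Among islands of their own length, an order chosen after seeing the data, 5 members rather than 3 had their densest OX TZP island in the upper part by percentile. This count includes TIR1 at percentile 50.5, whose 209 reads per kb equalled the median of such islands and did not exceed it. The share of all protein-coding genes by this order is not given here. The island nearest to the gene in place of the densest lay outside the interval at AFB2 in OX TZP (152 reads per kb) and at ARF6 (222) and ARF19 (283) in OX ZFHD10. Ordered by reads rather than reads per kb, the densest islands of all members changed rank in both lists. In OX TZP, TIR1 moved from rank 530 to 11525, ARF6 from 680 to 9322, AFB2 from 1678 to 5616, AFB3 from 6504 to 1226, ARF19 from 6884 to 3293, ARF8 from 10147 to 7953 and AFB1 from 11572 to 2062. No paired analysis was possible because each line has 1 library. With 47 reads or more per island, counting error alone spans much of the OX TZP range of densities.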

Other observations

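Beyond the 1000 bp searched, ARF6 was followed by further islands of both lines on the same side. The next OX TZP island, at chromosome 1 positions 10692701 to 10693500 and 1712 bp from the gene, had 178 reads per kb (150 to 209). The next OX ZFHD10 island, at 10692651 to 10693750, had 286 (256 to 320), and ARF6 was the protein-coding gene nearest to both. At ARF19 the next OX ZFHD10 island, at 6635951 to 6637300 and 2817 bp from the gene, had 232 (207 to 259) and also had ARF19 as its nearest gene. At AFB3 an OX ZFHD10 island at 4366901 to 4367450, with 275 reads per kb (233 to 322), stood 1309 bp from the gene and within the OX TZP island outside its left end. At ARF7 an OX ZFHD10 island at chromosome 5 positions 7014351 to 7014900, with 202 (166 to 243), stood 1544 bp from the left end and nearest to CPN20, a chaperonin gene. AFB1 and ARF8 stood farthest from a further OX TZP island, at 10586 and 13402 bp.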
